A study of Homo sapiens with 60 samples.

Results

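The transcriptome of SW1783 cells given a water extract of Schisandrae Fructus at 100 µg/mL, the medium dose, was compared with that of cells given the same extract at 20 µg/mL, the low dose. Libraries were chosen by their treatment labels, 3 at each dose, so 6 of the 60 libraries of the series carry the comparison. SW1783 is a human astrocytoma line, kept here in Leibovitz's L-15, a medium in which galactose takes the place of glucose. All groups were treated for 24 h, and mRNA libraries were made with a directional kit and read in pairs of 100 bp. Schisandrae Fructus is the dried fruit of a Schisandra vine used in East Asian medicine.

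Other groups of 3 libraries were used beside these 2. They were the same extract at 500 µg/mL (high dose), Liriopis seu Ophiopogonis Tuber extract at 100 and 20 µg/mL, Aucklandiae Radix extract at 500, 100 and 20 µg/mL, Polygalae Radix extract at 250 and 10 µg/mL, and vehicle. The vehicle is labelled as 0.1% DMSO, whereas the series description gives another percentage, and no DMSO content is labelled for the extracts. By library name, Schisandrae and Liriopis libraries share a set, Aucklandiae and Polygalae share another, and vehicle libraries form a further one, although no label calls these sets. The labels do not say whether the 3 libraries of a group were separate cultures. Every p-value thus measures only spread between libraries within groups, which may be technical. In the main analysis that spread was estimated over all 60 libraries together, not from the compared groups alone.

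The 6 libraries held 23.48 to 30.29 M expected counts (M for 1e6), and totals over the series ran from 9.34 to 35.35 M. Each of the 6 correlated with the others of its dose at a mean Pearson r of 0.990 or 0.991 across genes. Mitochondrial genes took 10.1, 8.73 and 8.96% of counts at the medium dose, against 11.4, 10.1 and 8.50% at the low dose. Of the astrocyte markers, AQP4 had 0 counts in all 6 libraries, and GFAP, S100B, ALDH1L1, SLC1A2 and NDRG2 stayed under 1 CPM (counts per 1e6 counts of the library) in each. The other 6 markers of that list were present. Among them GJA1 had 196 to 211 CPM at the medium dose and 194 to 207 CPM at the low dose, and SOX9 65.8 to 69.7 CPM at the medium dose and 76.3 to 80.5 CPM at the low dose. The list summed to 931 to 983 CPM at the medium dose and 973 to 1052 CPM at the low dose. Markers of glioma and mesenchymal cells were abundant, with summed levels of 15160 to 15440 CPM at the medium dose and 14070 to 14950 CPM at the low dose. The leukocyte markers AIF1, P2RY12 and TYROBP and the oligodendrocyte markers MOG, OPALIN and SOX10 were at 0 in all 6. Other members of those lists were present, such as CD68 with 185 to 196 CPM at the medium dose and 162 to 192 CPM at the low dose. PTPRC had 7.74 to 9.61 CPM at the medium dose and 9.70 to 10.8 CPM at the low dose, and CNP 127 to 135 CPM at the medium dose and 132 to 158 CPM at the low dose. None of these 5 genes passed the test between the doses. The Liriopis library at 500 µg/mL numbered replicate 1 stood apart from the rest (mean r 0.945 with its own group), and since all 60 libraries share a single estimate of the spread, counts of calls are also given without it.

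TXNIP encodes an alpha-arrestin that limits glucose uptake and binds thioredoxin, and its transcription follows the level of glucose metabolites through the factors ChREBP and MondoA. These factors bind DNA with their partner MLX at carbohydrate response elements, which are built of paired E boxes. ARRDC4, another alpha-arrestin gene, is under the same control. In astrocytes and glioma cells, Wnt, BMP and TGF-beta signals shape growth and contact with the matrix, and receptors and modulators of those pathways are among the genes described below.

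Between 100 and 20 µg/mL of Schisandrae, 59 of 17792 tested genes passed an adjusted p of 0.05 in edgeR (0.332%). Of these, 22 rose (0.124% of tested genes) and 37 fell (0.208%). Before adjustment, 1284 genes (7.22%) had a p under 0.05. The changes were small. The absolute log2 fold change had a median of 0.36 over the 22 rises and 0.33 over the 37 falls, beside 0.0873 over all tested genes. A change of 2-fold or more was reached by TXNIP and the pseudogene PPP4R2P2 upward and by LGR6 and ECM2 downward, and PPP4R2P2 and ECM2, named after their values were seen, stayed under 2 CPM in every one of the 6 libraries and lost their calls whenever 1 of these was left out. All 3 medium libraries lay beyond all 3 low libraries in each of the 59, as they did upward in 9.09% and downward in 9.7% of all tested genes. The 59 were chosen by a test that uses these same 6 libraries, so this separation is no further evidence.

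**Figure D1:**
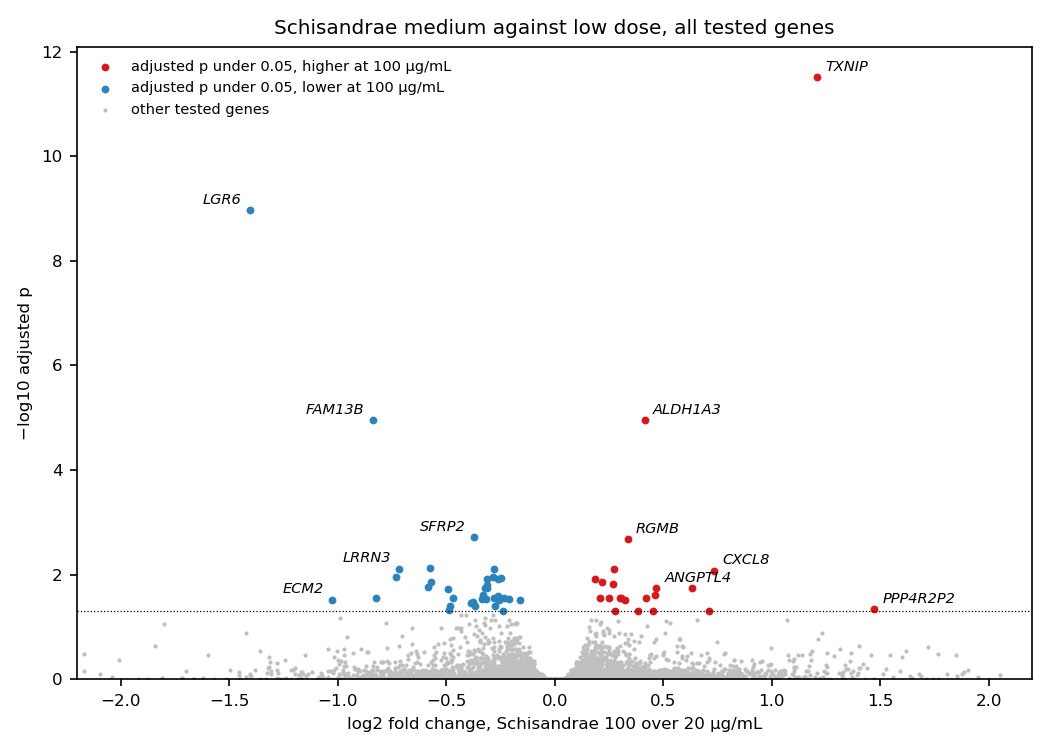
Log2 fold change of Schisandrae 100 over 20 µg/mL (x axis) against −log10 adjusted p from edgeR (y axis) for the tested genes, with the 22 rises in red, the 37 falls in blue and the threshold of 0.05 as a dotted line. TXNIP, LGR6, FAM13B and ALDH1A3 stand far above the other called genes, most of which lie close to the threshold, and 61 genes outside the plotted range, none of them called, are not shown.

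The number of calls depended on single libraries. It was 11, 21 and 15 without medium-dose replicates 1, 2 and 3, and 15, 29 and 23 without low-dose replicates 1, 2 and 3, whereas it was 322 (118 up, 204 down) without the Liriopis library that stands apart. All 59 genes kept the direction of their change in each of 14 alternative analyses. TXNIP, ALDH1A3, LGR6, FAM13B and SFRP2 were called in all 14, and RGMB in all but the analysis with no filter on low counts (adjusted p = 0.059 in edgeR). At the other end, 18 of the 59 were called in none of the 6 analyses that left out a medium or low library.

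TXNIP (ENSG00000265972, chromosome 1, 145992435 to 145996600, minus strand, GRCh38) had 23.3, 23.3 and 27.3 CPM in the medium-dose libraries, against 11.0, 9.46 and 11.6 CPM in the low-dose libraries. Each medium library was thus above each low library by a wide margin, and the log2 fold change was 1.21 (SE 0.10, edgeR adjusted p = 3e-12). In the 14 alternatives its change stayed between 1.13 and 1.27. Along the whole series of doses TXNIP averaged 10.1 ± 0.265 CPM with vehicle, 10.7 ± 1.08 at 20 µg/mL, 24.6 ± 2.31 at 100 µg/mL and 358 ± 5 at 500 µg/mL (SD, n = 3 each).

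ARRDC4 (ENSG00000140450, chromosome 15, 97960698 to 97973838, plus strand) had 7.99, 7.72 and 8.21 CPM at the medium dose, against 6.24, 5.64 and 5.58 CPM at the low dose. The libraries of the doses did not overlap, and the change was 0.46 (SE 0.11, edgeR adjusted p = 0.049), just inside the threshold. The call ended when any single one of the 6 libraries was left out, at an adjusted p of up to 0.23. At 500 µg/mL the gene stood at 35.6 ± 0.47 CPM. Of the 11 tested members of the glucose-responsive list, TXNIP and ARRDC4 rose and none fell, beside 0.124% and 0.208% of all tested genes. An earlier account of these data had picked both genes as extreme at the high dose. The median change of the list was 0.11, beside 0.0012 over all tested genes. That median was 0.04 without medium-dose replicate 1 and 0.17 without low-dose replicate 3. The relatives ARRDC3 (-0.14) and ARRDC2 (0.07) and the hexokinase gene HK2 (0.16) did not pass.

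The promoters of the 2 genes that rose from this list are shown to search them for elements of the kind described above. Each sequence covers 250 bases before and 50 after the start (RefSeq, GRCh38.p14), with TXNIP at chr1:145996530-145996829 on the minus strand and ARRDC4 at chr15:97960453-97960752 on the plus strand. Capitals mark an E box pair in direct repeat (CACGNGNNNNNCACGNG, either strand) in TXNIP and a single E box (CACGTG, its own reverse complement) in ARRDC4.
TXNIP: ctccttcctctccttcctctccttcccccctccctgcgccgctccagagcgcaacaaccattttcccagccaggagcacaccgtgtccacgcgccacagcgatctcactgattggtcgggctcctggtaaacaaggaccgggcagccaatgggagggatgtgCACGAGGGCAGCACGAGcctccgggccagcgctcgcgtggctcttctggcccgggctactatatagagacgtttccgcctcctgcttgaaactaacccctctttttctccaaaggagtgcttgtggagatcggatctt
ARRDC4: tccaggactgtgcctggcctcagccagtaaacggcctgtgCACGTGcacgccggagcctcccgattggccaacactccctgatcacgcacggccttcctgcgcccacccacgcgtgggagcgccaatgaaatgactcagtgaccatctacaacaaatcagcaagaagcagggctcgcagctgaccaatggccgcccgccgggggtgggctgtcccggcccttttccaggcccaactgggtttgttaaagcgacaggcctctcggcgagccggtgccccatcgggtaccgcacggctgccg
The pair in TXNIP begins 88 bases before the start, and 20 of 35116 promoter windows of the same length (0.06%) hold such a pair. The E box of ARRDC4 begins 210 bases before the start, and 7.26% of windows hold that motif. The ARRDC4 window holds no pair of the direct-repeat pattern. The direct-repeat pattern was added after a search with the mirrored pair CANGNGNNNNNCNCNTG, which is found in 0.56% of windows and in neither of these. A match describes the letters in the window and shows no binding.

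**Figure D2:**
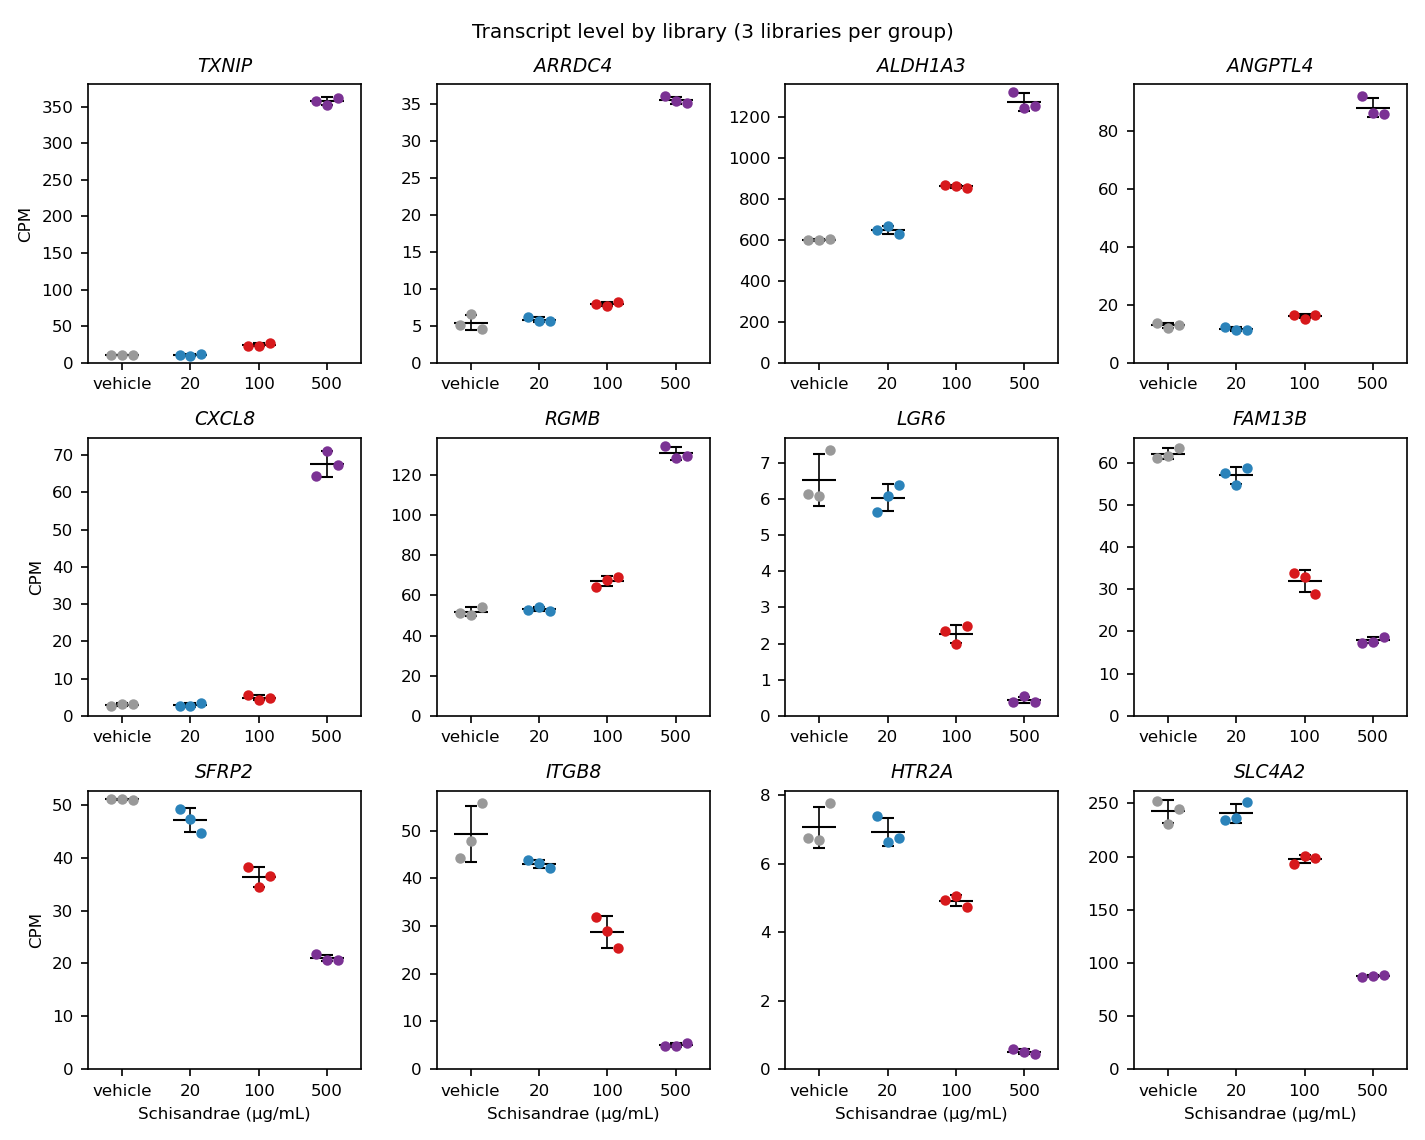
CPM (y axis, from 0) of 12 genes in each library under vehicle and under Schisandrae at 20, 100 and 500 µg/mL (x axis), with the mean and SD of 3 libraries as bars. For each gene the 3 libraries at 100 µg/mL lie between those at 20 and those at 500 µg/mL, with TXNIP at 24.6 CPM between 10.7 and 358 CPM.

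Among enzymes and secreted signals, ALDH1A3, which makes retinoic acid from retinaldehyde, was the most abundant of the genes called in every alternative (ENSG00000184254, chromosome 15, 100877714 to 100916626, plus strand). Its levels were 868, 865 and 854 CPM at the medium dose, against 647, 666 and 627 CPM at the low dose. The gap between the doses was many times the spread within them, with a log2 fold change of 0.42 (SE 0.06, edgeR adjusted p = 1.1e-05). The antisense gene ALDH1A3-AS1 overlaps it, and since the strand setting of the counting is not given in the sources used here, reads of the pair cannot be told apart. The same limit holds for RGMB, ITGB8, ANGPTL4, SLC4A2, DONSON, LYPD1, EIF4A2, ATG16L2, ASMTL, ECM2, PPP4R2P2, LRRN3, LINC01547 and the carboxypeptidase M gene, each of which overlaps a tested gene on the other strand.

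ANGPTL4 encodes a secreted protein that inhibits lipoprotein lipase, and its gene (ENSG00000167772) lies on the plus strand of chromosome 19, from 8363289 to 8374373. It had 16.5, 15.2 and 16.4 CPM at the medium dose, against 12.3, 11.1 and 11.3 CPM at the low dose. The libraries of the doses did not overlap, and the rise was a log2 fold change of 0.47 (SE 0.10, edgeR adjusted p = 0.018), a call that ended without medium-dose replicate 1 or 3 or low-dose replicate 2 or 3 (up to 0.11). It was the single called gene of 15 in the list of PPAR targets and lipid droplet genes, beside 0.332% of all tested genes. PLIN2, which coats lipid droplets, had a change of 0.22 (adjusted p = 0.13).

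CXCL8, a chemokine that draws neutrophils (ENSG00000169429, chromosome 4, 73740506 to 73743716, plus strand), had 5.60, 4.36 and 4.67 CPM at the medium dose, against 2.58, 2.65 and 3.57 CPM at the low dose. The ranges did not overlap, though low-dose replicate 3 came near the lowest medium library, and the change was 0.74 (SE 0.14, edgeR adjusted p = 0.0084). The call ended without medium-dose replicate 1 or low-dose replicate 1 or 2 (up to 0.098). CXCL8 alone passed of 23 tested genes of the NF-kB and cytokine list, beside 0.332% of all tested genes. The median change of that list was 0.07. Values of other members were 0.35 for BIRC3, 0.51 for IL1A, 0.16 for IL1B and 0.07 for PTGS2, none past the threshold.

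F3, which encodes tissue factor, the cell surface trigger of clotting, had 164, 164 and 176 CPM at the medium dose, against 132, 142 and 134 CPM at the low dose (0.30, SE 0.07, edgeR adjusted p = 0.028). The libraries of the doses did not overlap. The call ended in 5 of the 6 analyses that left out a library, all but the one without low-dose replicate 2, at up to 0.22. F3 was among the called members of the list of 21 tested YAP and TGF-beta targets, whose median was 0.01. The 19 tested matrix proteases and inhibitors had a median of 0.07. The extracellular matrix list had 0 called of 27 members, with a median of 0.01.

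THBD encodes thrombomodulin, a receptor that turns thrombin against clotting. It had 12.1, 11.0 and 12.4 CPM at the medium dose and 9.38, 11.4 and 10.6 CPM at the low dose. The ranges overlapped, and the change of 0.17 (SE 0.10, edgeR adjusted p = 0.79) did not pass.

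Among receptors and modulators of Wnt and BMP signals, LGR6, a receptor for R-spondins that strengthens Wnt signalling, fell most (ENSG00000133067, chromosome 1, 202193901 to 202319781, plus strand). It had 2.35, 1.99 and 2.47 CPM at the medium dose, against 5.64, 6.08 and 6.38 CPM at the low dose. Every medium library was under every low library, with a log2 fold change of -1.41 (SE 0.13, edgeR adjusted p = 1.1e-09). SFRP2, a secreted modulator of Wnt ligands (ENSG00000145423, chromosome 4, 153780592 to 153789120, minus strand), had 38.2, 34.4 and 36.5 CPM at the medium dose, against 49.3, 47.3 and 44.8 CPM at the low dose. Its change was -0.37 (SE 0.06, edgeR adjusted p = 0.0019), and it passed in every alternative.

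RGMB, a membrane-anchored co-receptor for BMPs (ENSG00000174136, chromosome 5, 98768650 to 98798643, plus strand), had 64.4, 67.8 and 69.1 CPM at the medium dose, against 52.6, 54.3 and 52.5 CPM at the low dose. It rose by 0.34 (SE 0.06, edgeR adjusted p = 0.0021). RGMB was not on the list of BMP and ID genes, of whose 20 tested members 0 were called, with a median of -0.07. The ligand gene BMP4 (-0.35, adjusted p = 0.12) and the mediator SMAD9 (0.51, adjusted p = 0.13) came nearest there, with medium libraries beyond all low libraries in opposite directions. In that list all medium libraries lay below all low libraries in 6 members and above them in 1 (9.7% and 9.09% of all tested genes).

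ITGB8, the beta chain of an integrin that activates latent TGF-beta (ENSG00000105855, chromosome 7, 20330702 to 20415754, plus strand), had 31.9, 29 and 25.3 CPM at the medium dose, against 43.8, 43.2 and 42.1 CPM at the low dose. The medium libraries were lower and more spread than the low ones, and the change was -0.58 (SE 0.12, edgeR adjusted p = 0.017). Its call held without medium-dose replicate 1 and ended without any other of the 6 (up to 0.22). Of 17 integrin genes tested it alone was called, beside 0.332% of all tested genes. The other 16 had changes from -0.22 to 0.17.

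FAM13B, which encodes a protein with a GTPase-activating domain (ENSG00000031003, chromosome 5, 137937960 to 138051961, minus strand), had 33.8, 33.0 and 29 CPM at the medium dose, against 57.5, 54.8 and 58.8 CPM at the low dose. The gap was wide in every library, with a change of -0.84 (SE 0.11, edgeR adjusted p = 1.1e-05) that stayed between -0.88 and -0.77 in the alternatives.

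A receptor and a vesicle protein known from neurons fell. HTR2A, the serotonin 2A receptor (ENSG00000102468, chromosome 13, 46831550 to 46897076, minus strand), had 4.96, 5.06 and 4.75 CPM at the medium dose, against 7.40, 6.64 and 6.76 CPM at the low dose (-0.49, SE 0.11, edgeR adjusted p = 0.019). SYT1, the calcium sensor of synaptic vesicles, had 18.5, 18.0 and 17.1 CPM at the medium dose, against 24.0, 23.6 and 21.4 CPM at the low dose (-0.37, SE 0.09, edgeR adjusted p = 0.039). Of 8 tested neuron markers these 2 fell and none rose (0.208% and 0.124% of all tested genes), with a median of -0.23. SNAP25, at 24.7 to 28.5 CPM in the 6 libraries, changed by -0.02. TUBB3, the most abundant, went the other way without passing, at 116, 115 and 116 CPM at the medium dose. At the low dose TUBB3 had 108, 113 and 108 CPM. The whole list summed to 169.5 to 174.2 CPM at the medium dose and 170.5 to 181.5 CPM at the low dose. The HTR2A call held only without low-dose replicate 2 among the 6 leave-outs (up to 0.18), and the SYT1 call held in none (up to 0.29). In bulk RNA, fewer cells of a kind and less RNA per cell cannot be told apart.

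The remaining genes eligible for naming had rises between 0.25 and 0.46. ATG16L2, a relative of the autophagy gene ATG16L1, was at 0.46 and SNRPA1, a protein of the U2 small nuclear ribonucleoprotein, at 0.42. FAM167A (0.38), ASMTL (0.32), LARP1B (0.30) and the carboxypeptidase M gene, whose symbol is also CPM (0.28), followed. DONSON, which acts in DNA replication, was at 0.28 (adjusted p = 0.0077), and UAP1, which makes the activated sugar UDP-N-acetylglucosamine, at 0.25. Among the smallest rises, EIF4A2, an RNA helicase of translation, was at 0.22. Of the 6 analyses that left out a library, the calls of SNRPA1, FAM167A, UAP1 and the carboxypeptidase M gene ended in all 6, that of ASMTL in 5, those of ATG16L2 and LARP1B in 4, that of EIF4A2 in 3 and that of DONSON in 2.

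Further falls among the eligible genes comprised FAM43A (-0.57), PADI2, which converts arginine to citrulline in proteins (-0.49), PDE7B, a cAMP phosphodiesterase (-0.47), ZNF641 (-0.38) and HR, a nuclear receptor corepressor (-0.37). GPRC5C, an orphan receptor (-0.33), HDAC5, a class II histone deacetylase (-0.32), and LYPD1 (-0.32) also fell. In the same 6 analyses the call of ZNF641 ended in all 6, those of PADI2 and GPRC5C in 5, and those of FAM43A, PDE7B, HR, HDAC5 and LYPD1 in 4. MT-RNR2, the mitochondrial large ribosomal RNA, had 10410, 9275 and 9375 CPM at the medium dose, against 12690, 12750 and 11250 CPM at the low dose (-0.34, SE 0.08, edgeR adjusted p = 0.03), a call that held only without low-dose replicate 3 among the 6 leave-outs (up to 0.25). Medium-dose libraries held less of it in each case, beside the mitochondrial shares of all counts given above, whose ranges overlap between the doses. None of the 13 tested mitochondrially encoded protein genes was called, and their median of -0.13 ran from -0.23 without low-dose replicate 3 to 0.0051 without low-dose replicate 1. SLC4A2, a chloride and bicarbonate exchanger outside the naming rule and picked after its values were seen, had 193, 201 and 199 CPM at the medium dose, against 234, 236 and 251 CPM at the low dose (-0.29, SE 0.06, edgeR adjusted p = 0.011), and its call ended in 3 of the 6 leave-outs.

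Most of the pathway lists held no called gene at this step. Of the 38 lists, with 621 tested members in all, 10 members were called (6 up, 4 down), or 1.61%, beside 0.332% of all tested genes. One of these lists holds 7 genes that an earlier account of these data picked as extreme at the high dose, so its 6 calls are no independent evidence. Without it, 9 of 620 members were called (6 up, 3 down), since LGR6 is on no other list. TXNIP, ARRDC4, CXCL8, ITGB8 and HTR2A remain among the 9 through other lists, so that count is no independent evidence either. ATF4 and amino acid stress genes had 0 called of 28 and a median of 0.02, the unfolded protein response 0 of 21 and -0.0014, NRF2 targets 0 of 27 and 0.01, and hypoxia and glycolysis 0 of 27 and 0.0063. Mitosis genes had 0 called of 26, with 24 changes above 0 and a median of 0.07, and the nuclear-encoded respiratory chain 0 of 25, with 22 above 0 and a median of 0.06. Over all tested genes, 8963 of 17792 changes were above 0. Cholesterol synthesis and uptake had 0 called of 25 and a median of -0.09, with all medium libraries below all low libraries in 9 members and above them in 0 (9.7% and 9.09% of all tested genes). Interferon-stimulated genes had 0 called of 27 and a median of -0.10. Over the alternative analyses the median of the ATF4 list ran from -0.01 to 0.03 and that of the unfolded protein response from -0.04 to 0.03, so neither has a settled sign. The medians of mitosis (0.05 to 0.10), respiratory chain (0.05 to 0.08), cholesterol (-0.10 to -0.07) and interferon genes (-0.13 to -0.07) kept theirs. Those analyses reuse the same libraries, so a kept sign is no independent evidence. By library, relative to the mean low level, the mitosis median was 0.045 in medium-dose replicate 2 and 0.054 in low-dose replicate 2.

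**Figure D3:**
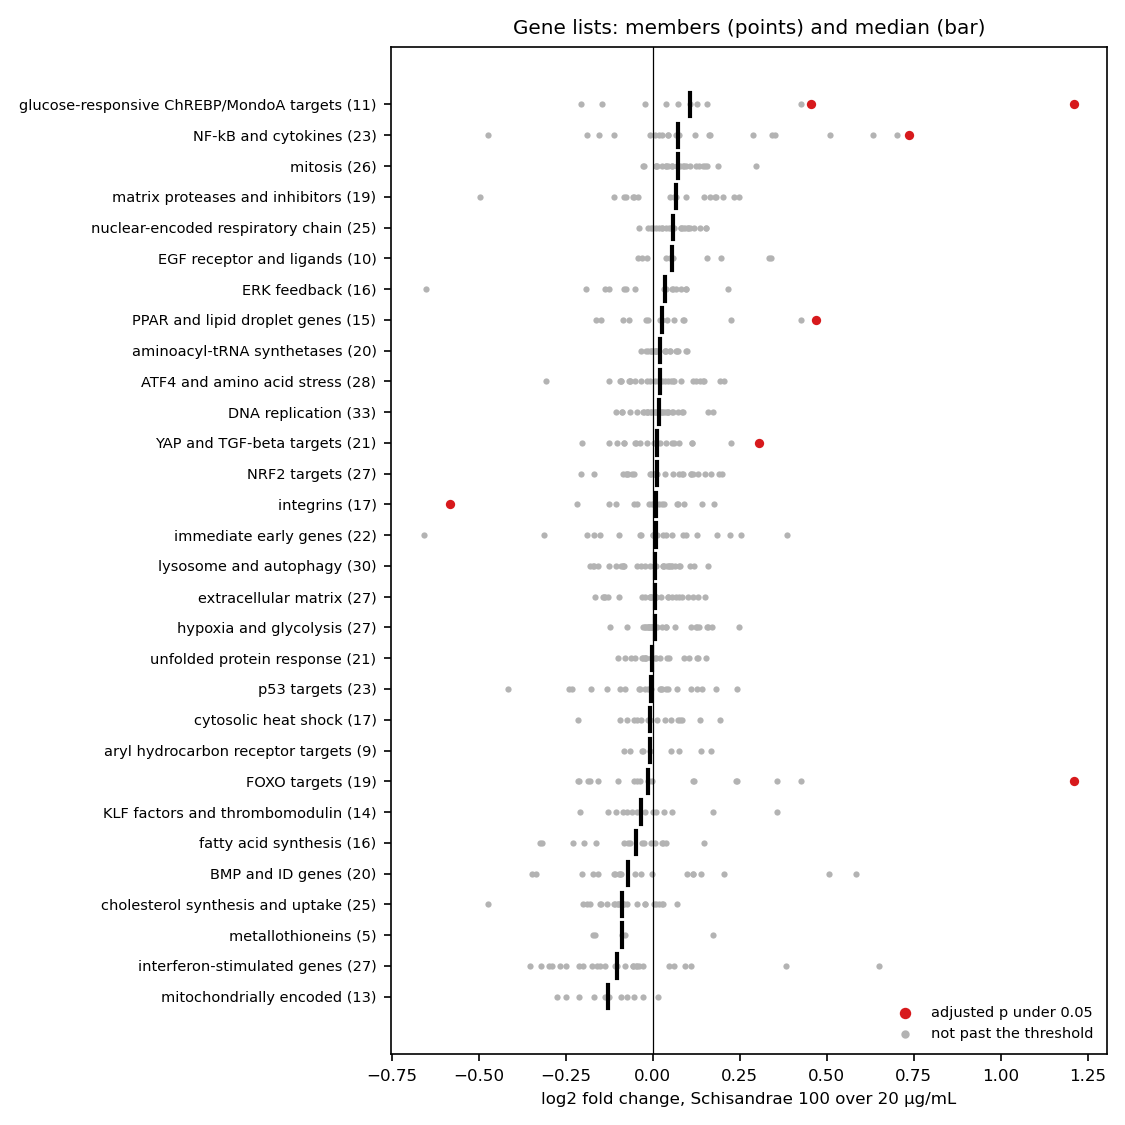
Log2 fold change of Schisandrae 100 over 20 µg/mL (x axis) for members of 30 gene lists (rows, with the number tested), called members in red and the list's median as a bar. Medians lie between -0.13 and 0.11, and TXNIP appears in the rows of both glucose-responsive and FOXO targets. Genes left out of the text are counted in the numbers and medians but not drawn.

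Without the Liriopis library that stands apart, 59 libraries entered the fit, 0.663% of tested genes rose and 1.15% fell, and more list members passed. In fatty acid synthesis 4 of 16 fell and 0 rose, which were the desaturase genes SCD (-0.32, SE 0.04, edgeR adjusted p = 7.5e-06), FADS2 (-0.33) and FADS1 (-0.17) and the lipogenic transcription factor SREBF1 (-0.20). Cholesterol synthesis had 2 falls of 25, among them LSS (-0.19). With all 60 libraries, FADS2 had 59.9, 62.4 and 56.4 CPM at the medium dose, against 75.5, 68.6 and 79.5 CPM at the low dose, and its adjusted p was 0.21.

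In the same 59-library fit, the matrix protease MMP14 (0.18) and the urokinase receptor PLAUR (0.20) rose as well, with 3 rises of 19 in their list. NQO1 (0.16) and TXNRD1 (0.15) of the NRF2 targets rose while SQSTM1 (-0.17) fell, and the immediate early genes DUSP1 (0.25) and MYC (0.18) rose. BMP and ID genes gave 1 rise, SMAD9 (0.51), and 2 falls, SMAD7 (-0.20) and BMP4 (-0.36). MAP2, a microtubule protein of dendrites (-0.52), joined HTR2A and SYT1, giving 3 falls of 8 neuron markers.

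The same step, 100 against 20 µg/mL, was measured for 2 other herbs. For Liriopis, edgeR called 0 of 17792 genes and DESeq2 5, and before adjustment 518 (2.91%) had a p under 0.05. Liriopis low-dose replicate 3 was the shallowest library of the series, at 9.34 M against 18.64 M for the next. The Schisandrae and Liriopis counts thus do not come from equal depth. The same holds for Aucklandiae, whose low-dose replicates 2 and 3 held 18.64 and 18.94 M. For Aucklandiae, edgeR called 3 (0.0169%; 0.0112% up and 0.00562% down), among them ANGPTL4 (0.61, adjusted p = 0.0034) and, downward, SFRP2 (-0.33, adjusted p = 0.031). Without the Liriopis library that stands apart the Aucklandiae count was 25, and it was 0 or 1 without single Aucklandiae libraries. All 3 genes are among the 59 of Schisandrae, and the 2 herbs share no library.

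The difference between the steps was tested directly. Against Liriopis, 7 genes differed in edgeR (0.0393% of those tested; 0.0225% upward and 0.0169% downward): TXNIP, ALDH1A3, ANGPTL4 and EIF4A2 changed more upward with Schisandrae, and LGR6, FAM13B and the long intergenic LINC01547 more downward. TXNIP differed by 1.44 (SE 0.14, adjusted p = 7.9e-09), with a change of -0.23 in Liriopis, and LGR6 by -1.09 (SE 0.19, adjusted p = 0.0071), with a change of -0.32 in Liriopis. Against Aucklandiae, 3 genes differed (0.0169%; 0.0112% upward and 0.00562% downward), among them TXNIP by 1.26 (SE 0.14, adjusted p = 3.3e-07) and FAM13B by -0.79 (SE 0.16, adjusted p = 0.048). For the rest of the 59, differences between herbs did not pass, which does not show that the herbs act alike on them. Of the differences, only those of TXNIP passed in every alternative tried. Counts against Liriopis were 53 without the library that stands apart and 1 to 5 without single libraries of these 4 groups, and against Aucklandiae 22 and 1 to 2.

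**Figure D4:**
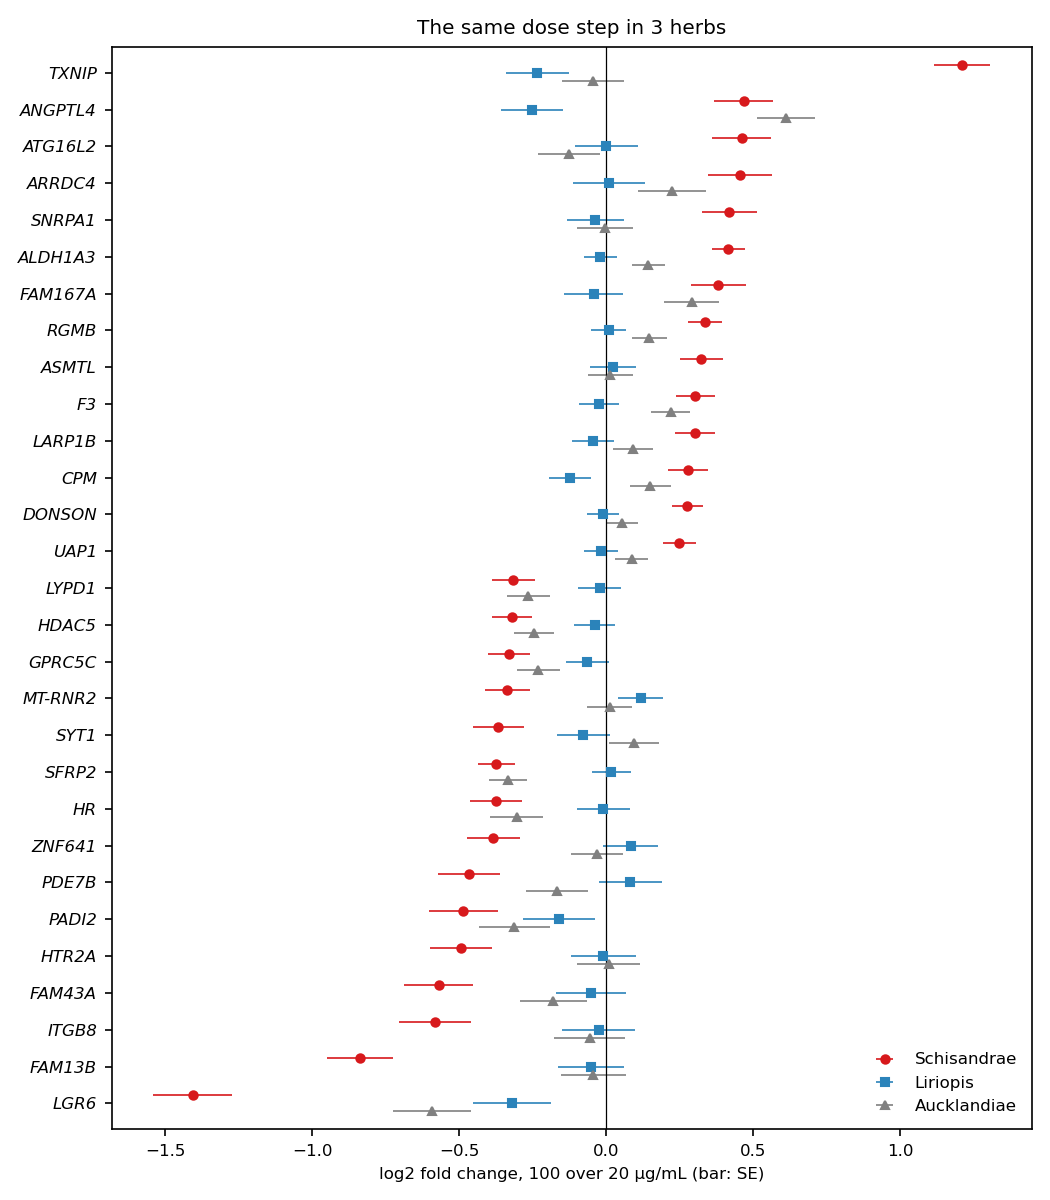
Log2 fold change of 100 over 20 µg/mL (x axis, bars are SE) in Schisandrae (red circles), Liriopis (blue squares) and Aucklandiae (grey triangles) for 14 of the 15 largest eligible rises and the 15 largest eligible falls with Schisandrae (rows). TXNIP is at 1.21 with Schisandrae, -0.23 with Liriopis and -0.05 with Aucklandiae, whereas ANGPTL4 is at 0.47, -0.25 and 0.61.

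The 59 genes were also followed in comparisons that share no library with the medium and low doses of Schisandrae, which were added after the first results were seen. At 500 µg/mL against vehicle, 21 of the 22 genes that rose were called up and 0 down, where 25.3% of all tested genes were called up and 25.6% down (50.9% together). Of the 37 that fell, 36 were called down and 1 up. The exceptions were PPP4R2P2 (0.50, adjusted p = 0.26) and HDAC5, which was higher at 500 µg/mL than with vehicle (0.18, adjusted p = 0.022). Median changes at 500 µg/mL were 1.10 for the rises and -0.99 for the falls. Since no other group shares the set of the vehicle libraries, the extract and any difference between sets cannot be told apart in this comparison.

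**Figure D5:**
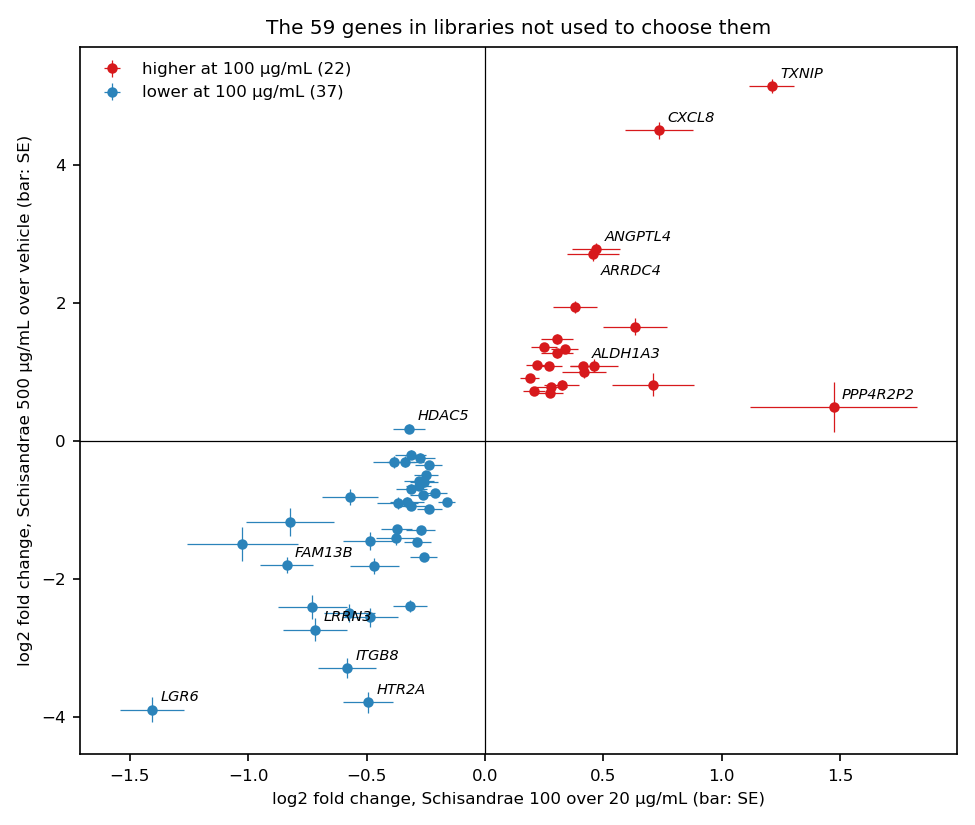
Log2 fold change of Schisandrae 100 over 20 µg/mL (x axis) against that of 500 µg/mL over vehicle (y axis) for the 59 called genes, with SE bars, rises in red and falls in blue. HDAC5 is the only called gene whose point lies on opposite sides of 0 on the axes, and TXNIP is highest at 5.15.

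Of the next step of the series, 500 against 100 µg/mL, which shares the medium libraries, the values stand side by side. There 4100 genes rose and 4100 fell (23.0% each, 46.1% together). TXNIP changed by 3.86, CXCL8 by 3.79, ANGPTL4 by 2.46 and ARRDC4 by 2.16, while ALDH1A3 changed by 0.56. Downward, HTR2A changed by -3.26, ITGB8 by -2.51, LGR6 by -2.38, FAM13B by -0.83 and SFRP2 by -0.79. THBD, not called at the lower step, changed by 3.24.

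In the libraries of a second set, Aucklandiae at 500 against 20 µg/mL raised 10 of the 22 genes and lowered 0, beside 5.32% and 5.3% of all tested genes. It lowered 16 of the 37 and raised 1, DUSP3. ANGPTL4 (2.88), CXCL8 (1.70) and ALDH1A3 (0.62) were among the 10, and LGR6 (-1.77), LYPD1 (-1.25) and SFRP2 (-0.93) among the 16. TXNIP (-0.20), FAM13B (-0.32), ITGB8 (-0.17) and HTR2A (-0.29) were not called there. With Polygalae at 250 against 10 µg/mL, 5 of the 22 rose and 7 fell, and 20 of the 37 fell and 12 rose, beside 17.9% up and 18.3% down of all genes. TXNIP (-0.46) and ALDH1A3 (-0.46) were among the 7 that fell, and CXCL8 (1.84) and ARRDC4 (0.63) among the 5 that rose. LGR6 (-2.33), PADI2 (-3.02) and SFRP2 (-0.41) fell with Polygalae as well.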

How the data were processed

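The values are expected counts per gene, deposited by the authors as 1 table of 60675 identifiers and 60 libraries. Per the submitters' processing notes, reads were checked with FastQC 0.11.9, trimmed with Trim Galore 0.6.5, aligned to GRCh38 with STAR 2.7.3a and counted with RSEM 1.3.3; neither the annotation release nor the strand setting is given in the sources used here. Expected counts (11.02% not whole) were rounded. Coordinates are from GENCODE 29, and symbols matched 17541 of the 17792 tested identifiers.

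The quasi-likelihood model of edgeR 4.0.16 (R 4.3.3) was fitted to all 60 libraries at once, with 20 group means, TMM scaling, a minimum count of 10 and 40 residual degrees of freedom. The biological coefficient of variation was 8.72%. Calls are Benjamini-Hochberg adjusted p under 0.05 over all tested genes. Adjusted p-values are edgeR's where no tool is named. CPM uses TMM-scaled totals. Standard errors (SE) were derived from F statistics. Replicates of the 2 doses differed from each other by more than sampling noise. Alternatives were RLE scaling, no filter on low counts, DESeq2 1.42.0, robust estimation, a replicate block, smaller sets of libraries and leaving out single libraries. The test was tried on simulated counts.

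Eligible for naming were called genes whose libraries did not overlap, with at least 5 CPM on average in the higher group and an ordinary symbol, the 15 largest each way, with up to 4 called members of each list (or 2 uncalled), the leading differences between herbs, and 7 genes whatever their values. A few genes that these rules name are not reported here. The members, lists, rules and comparisons were chosen with earlier results of these data known.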

Additional observations from a re-analysis of the deposited data

Results flagged for a closer look

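The change at 100 against 20 µg/mL differed between herbs in the following tests of the difference itself, each with edgeR over all genes. Against Liriopis the log2 difference was 1.44 for TXNIP, 0.44 for ALDH1A3, 0.72 for ANGPTL4, 0.31 for EIF4A2, -1.09 for LGR6, -0.79 for FAM13B and -0.8 for LINC01547. Against Aucklandiae it was 1.26 for TXNIP and -0.79 for FAM13B. All 3 Schisandrae medium libraries lay beyond all 3 low libraries in each of these genes, as in each of the 59 called genes. Of all tested genes, 9.09% did so upward and 9.7% downward. The flagged genes were chosen by tests that use these same libraries, so the separation is no further evidence. It does not bear on the difference between herbs.

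In the 12 analyses that left out a library, both TXNIP differences passed in all 12, with adjusted p of up to 3.9e-07 against Liriopis and 8.5e-06 against Aucklandiae. LGR6 passed in 9 (up to 0.056) and ALDH1A3 in 8 (up to 0.093). EIF4A2 passed in 2, ANGPTL4 and LINC01547 in 1 each, and FAM13B in 0 against either herb (up to 0.26 against Liriopis and 0.32 against Aucklandiae).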

How the results depend on the processing

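Between 100 and 20 µg/mL of Schisandrae edgeR called 59 genes (22 up, 37 down, 10 on lists). The count was 12 (5 up, 7 down, 5 on lists) with no filter on low counts, 96 (39 and 57) with DESeq2, 322 (118 and 204, 40 on lists) without Liriopis_high replicate 1 and 176 (57 and 119, 26 on lists) in a fit of the 9 Schisandrae libraries. It was 57 with RLE scaling, 54 with robust estimation and 62 with the 6 libraries alone. Without single medium or low libraries it ranged from 11 to 29 (4 to 11 up, 7 to 20 down, 3 to 5 on lists). Removing a library leaves its group with 2, and whether this alone lowers the number of calls was not tested.

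With no filter, DESeq2 and without Liriopis_high replicate 1, the Aucklandiae step gave 1, 6 and 25 calls in place of 3, and the difference from the Liriopis step 4, 20 and 53 in place of 7. The difference from the Aucklandiae step gave 5 with DESeq2 and 22 without Liriopis_high replicate 1 in place of 3. The Liriopis step gave 5 with DESeq2 in place of 0. Without single libraries these counts ranged from 0 to 1 for the Aucklandiae step, 1 to 5 for the difference from Liriopis and 1 to 2 for that from Aucklandiae. None of the 59 genes changed direction. The medians of 18 of the 38 lists did, an alternative added after the first results were seen, among them mitochondrially encoded genes (-0.23 to 0.0051), YAP and TGF-beta targets (-0.00070 to 0.03) and extracellular matrix (-0.00021 to 0.01).

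Same-numbered medium and low libraries deviated together at r of 0.068, -0.032 and 0.050, so the numbers are not taken to pair them. With a replicate block within the set, 34 genes were called (13 up, 21 down) and 1 differed from the Aucklandiae step.

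Depth in the 6 libraries ran from 23.48 to 30.29 M, with low-dose replicate 2 the deepest. A miss of the threshold does not show that a gene did not change, since FADS2, for one, missed it with 60 libraries and passed with 59. The causes of lost calls were not tested.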

Other observations

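A few of the 59 genes did not move further at 500 µg/mL. HDAC5 averaged 24.1 ± 0.33 CPM with vehicle, 26.2 ± 2.1 at 20 µg/mL, 21.0 ± 0.51 at 100 µg/mL and 27.3 ± 2.1 at 500 µg/mL of Schisandrae (SD, n = 3 each). TRIB2, a pseudokinase gene picked after its values were seen, averaged 50.3, 50.4, 40.5 and 43.9 CPM along the same series, and PID1, picked likewise, 16.1, 15.3, 12.6 and 13.7 CPM. MT-RNR2 averaged 9686 CPM at 100 µg/mL and 10470 CPM at 500 µg/mL. Of these, the fit called the step from 100 to 500 µg/mL for HDAC5 (0.38, adjusted p = 9.4e-06) and not for TRIB2 (0.11, adjusted p = 0.17), PID1 (0.12, adjusted p = 0.16) or MT-RNR2 (0.11, adjusted p = 0.24). The comparisons share the medium libraries.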
